A study of Mus musculus with 12 samples.

Results

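The immunoglobulin kappa variable segments are the germline genes from which B cells build the variable part of the kappa light chain. They were taken here as every gene symbol starting with Igkv whose counts summed over the 12 libraries came to 50 or more, a choice that rests on the measured counts themselves. This gave 93 segments out of 160 Igkv symbols and 55401 genes in the table. Just inside the limit lay Igkv12-38 and Igkv6-29 with 52 counts each, and just outside it lay Igkv4-73 with 48 and Igkv2-116 with 46, both annotated as pseudogenes. The 93 segments held between 99.2% and 99.8% of all Igkv counts in a library. Shares below are of the counts summed over these 93 segments.

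The libraries were made from peritoneal lavage cells of C57BL/6J mice, in 3 groups of 4. The ID8-FSHR mice had received an intraperitoneal injection of the mouse ovarian cancer line labelled ID8 (defb29/Vegf-a) carrying the receptor for follicle-stimulating hormone (FSHR). The ID8 mice had received the ID8 (defb29/Vegf-a) line without the receptor, and the uninjected mice no injection. Lavage with 8 mL of phosphate-buffered saline followed 7 days after injection, and the sources used here do not give the ages of the mice. The number of injected cells is 4000000 in one label and 5000000 in another. The labels name no group injected without tumour cells, so tumour growth and the injection cannot be told apart.

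In a developing B cell the RAG recombinase joins one kappa variable segment to one joining segment, and the transcript is then spliced to the constant exon Igkc. A mature B cell normally expresses a single light chain, so the counts of the variable segments in a tissue reflect which B cells are in it and how much light chain RNA each makes. The peritoneal cavity of the mouse is rich in B-1 cells, innate-like B cells with a restricted repertoire. A well-known set of mouse B-1 cells binds phosphatidylcholine and pairs the heavy chain segment Ighv11-2 with Igkv14-126, or Ighv12-3 with Igkv4-91.

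The 93 segments lie on chromosome 6 of GRCm38 between positions 67555497 and 70704177, upstream of Igkc (70726435 to 70726966, plus strand). All 160 Igkv symbols matched GENCODE M21 by versioned identifier, which annotates 88 of the 93 as variable genes and 5 as pseudogenes (Igkv14-126-1, Igkv1-108, Igkv2-107, Igkv4-77 and Igkv4-60). The pseudogenes held between 0.228% and 0.709% of the counts. Of the segments 37 lie on the plus strand and 56 on the minus strand, at 22.3 to 3170 kb from Igkc, and their exons add up to 298 to 501 bases (median 362). Only Igkv2-137 overlaps another annotated gene, Gm42889 on the same strand.

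The variable exons of Igkv14-126 and Igkv4-91, the segments known from phosphatidylcholine-binding cells and described in most detail below, are shown first, 5′ to 3′ on the coding strand, from the GENCODE M21 transcripts. Capitals run from the last in-frame cysteine codon to the end of the segment, where the joining segment is added. The capitals after that codon are the germline part of the third hypervariable loop (CDR3). The exon of Igkv14-126 lies at chr6:67896345-67896642 on the plus strand and that of Igkv4-91, of which the last 298 bases are shown, at chr6:68768555-68768852 on the minus strand. They are 70.7% identical over their transcripts.
Igkv14-126: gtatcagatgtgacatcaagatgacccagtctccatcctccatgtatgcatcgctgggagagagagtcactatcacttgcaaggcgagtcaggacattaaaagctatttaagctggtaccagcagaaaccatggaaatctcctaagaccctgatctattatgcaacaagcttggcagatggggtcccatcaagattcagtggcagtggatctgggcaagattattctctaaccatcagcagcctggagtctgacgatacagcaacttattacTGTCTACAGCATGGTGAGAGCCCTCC
Igkv4-91: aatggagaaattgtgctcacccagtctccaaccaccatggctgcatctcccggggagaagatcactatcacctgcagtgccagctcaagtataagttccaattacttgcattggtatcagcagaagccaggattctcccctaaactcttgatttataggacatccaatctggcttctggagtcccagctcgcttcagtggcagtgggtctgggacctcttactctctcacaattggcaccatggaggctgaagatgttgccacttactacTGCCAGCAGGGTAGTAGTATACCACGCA

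The last 60 bases of 6 further segments show how close the others are to each other. Igkv1-117 and Igkv1-110 are shown as the next most abundant segments, Igkv12-89 and Igkv10-96 as abundant segments of other families, and Igkv6-15 and Igkv19-93 for their shares in tumour mice. Igkv1-117 (chr6:68121046-68121827, plus strand) and Igkv1-110 (chr6:68270485-68271267, plus strand) are 96.8% identical.
Igkv1-117: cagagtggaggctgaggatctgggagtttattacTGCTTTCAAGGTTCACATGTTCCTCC
Igkv1-110: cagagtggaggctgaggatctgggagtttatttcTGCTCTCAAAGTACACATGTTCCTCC
Igkv12-89: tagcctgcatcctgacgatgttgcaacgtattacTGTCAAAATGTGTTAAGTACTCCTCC
Igkv10-96: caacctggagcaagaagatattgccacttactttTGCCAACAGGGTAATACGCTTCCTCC
Igkv6-15: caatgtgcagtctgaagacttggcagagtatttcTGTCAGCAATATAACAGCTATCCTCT
Igkv19-93: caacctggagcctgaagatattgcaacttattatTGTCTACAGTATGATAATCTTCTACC

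How far a read can be assigned to 1 segment differs between them. Of all 50-base windows in a segment's exons, Igkv14-126, Igkv12-89 and Igkv19-93 shared none with any other Igkv symbol, and Igkv4-91 shared 5.18%. Igkv1-117 shared 49.9%, Igkv1-110 50.9%, Igkv10-96 32.6% and Igkv6-15 15.8%. Over the 93 segments, 22 shared no window, 71 shared at least 1, and 16 shared over 50% of their windows, up to 74.3%. The sources used here do not say how the authors treated reads that map to several places, so the split between near-identical segments is uncertain.

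The 12 libraries held between 47419608 and 64333677 counts each. On the first principal component of log2 expression, which carried 85.3% of the variance, ID8-FSHR replicate 2 stood apart at -24.8. The remaining 7 tumour libraries ranged from -68.7 to -60.7 and the uninjected libraries from 116 to 121. Every measure of the ID8-FSHR group was also computed without it, a choice made after the data were seen. Genes were compared on their counts with the quasi-likelihood test of edgeR, fitted over all genes that passed a filter on low counts, and are called higher or lower at an adjusted p under 0.05. Fold changes are on the log2 scale. Their standard error (SE) was worked back from the fold change and the F statistic of this test. ID8-FSHR means the libraries so labelled. Transcripts of the tumour line list (Wt1, Krt19, Pkhd1l1, Defb29 and Vegfa) summed to 1293 to 3951 CPM (read counts scaled to the effective size of the library, as for counts per 1000000) in ID8-FSHR, 4899 to 6206 CPM in ID8 and 3.80 to 6.60 CPM in uninjected mice.

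Kappa variable RNA was lower in tumour-bearing mice than in uninjected mice. Summed over the 93 segments it stood at 51.3, 62.8, 53.9 and 40.1 CPM in ID8-FSHR, at 64.8, 50.9, 72.2 and 59.7 CPM in ID8, and at 383.9, 414.6, 493.4 and 506.6 CPM in uninjected mice. All 8 tumour libraries lay far below all 4 uninjected ones, and the tumour groups overlapped. The group means were 52.0 ± 9.35, 61.9 ± 8.94 and 449.6 ± 59.7 CPM (SD, n = 4 each). Summed expression was 8.65-fold lower in ID8-FSHR and 7.27-fold lower in ID8 than in uninjected mice, and ID8-FSHR relative to ID8 stood at a ratio of 0.840. Without ID8-FSHR replicate 2 the ratio of ID8-FSHR to uninjected was 0.108 in place of 0.116. In bulk RNA, fewer B cells and less light chain RNA per B cell cannot be told apart, and the part of added tumour RNA in the fall of CPM was not tested.

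The constant exon moved with the variable segments. Igkc stood at 101 ± 17.3 CPM in ID8-FSHR, 123 ± 23.7 CPM in ID8 and 915 ± 125 CPM in uninjected mice (SD, n = 4 each). It fell by 3.18 on the log2 scale in ID8-FSHR (SE 0.17, edgeR adjusted p = 7.79e-09) and by 2.90 in ID8 (SE 0.17, edgeR adjusted p = 1.29e-08). Per count of Igkc there were 0.515 ± 0.0115 variable segment counts in ID8-FSHR, 0.508 ± 0.0320 in ID8 and 0.491 ± 0.00338 in uninjected mice. The ID8-FSHR libraries, at 0.502 to 0.525, all lay just above the uninjected ones at 0.487 to 0.495, while the ID8 libraries spanned 0.470 to 0.536.

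**Figure D1:**
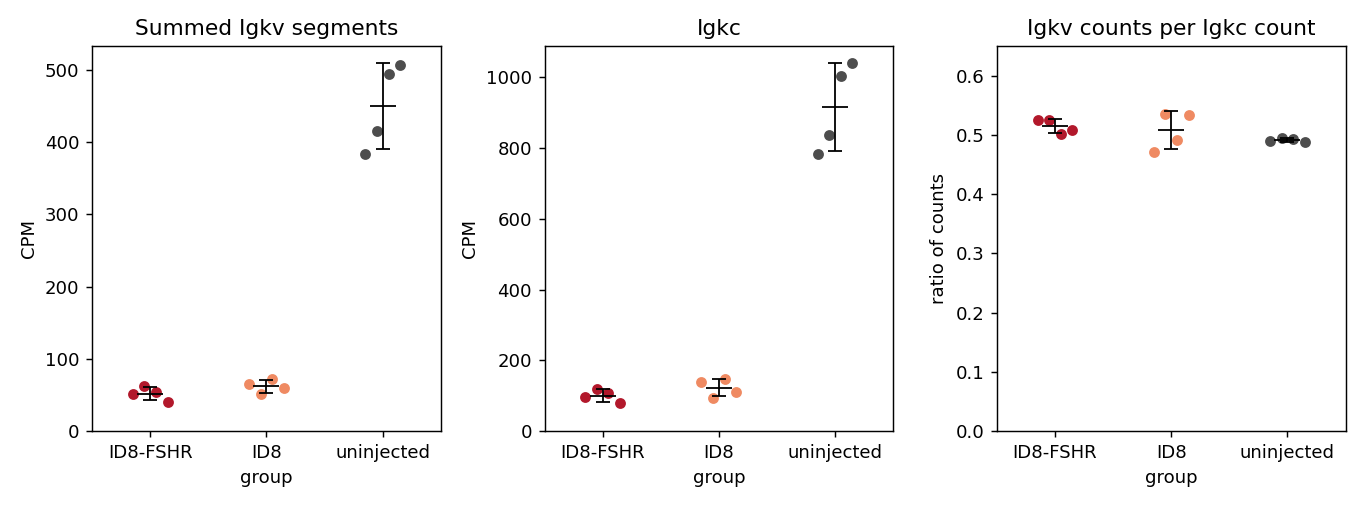
Points are libraries, coloured by group, with the mean and SD of 4 libraries. The left panel plots the summed CPM of the 93 Igkv segments, the middle panel the CPM of Igkc and the right panel Igkv counts per Igkc count. The first 2 fell in both tumour groups (52.0 and 61.9 against 449.6 CPM for the segments), and the ratio stayed between 0.470 and 0.536 in every library.

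The fall was set beside other genes of B cells. Of 14 B cell genes all 14 were lower in ID8-FSHR (median log2 fold change -2.88) and all 14 in ID8 (-2.75). The heavy chain gene Ighm fell by 3.14 in ID8-FSHR and by 3.01 in ID8. Per CPM of Cd79b, a signalling subunit of the B cell receptor, there were 1.04 ± 0.0620 CPM of kappa segments in ID8-FSHR, 1.09 ± 0.0776 in ID8 and 1.04 ± 0.0418 in uninjected mice (SD, n = 4 each). These ranges overlapped in every pair of groups. The ratio depends on the gene chosen, since Cd79b fell by 3.10 in ID8-FSHR and 2.92 in ID8 on the log2 scale. In the same list Bank1 fell less, by 2.38 and 2.40, and Blk fell more, by 3.63 and 3.33. Kappa RNA per B cell transcript thus cannot be read from Cd79b alone. The summed level of the B cell list ran from 708 to 1205 CPM in ID8-FSHR, from 800.1 to 1182 CPM in ID8 and from 6490 to 8384 CPM in uninjected mice, and its part in the kappa result was not tested. Lists of other cell types of the cavity were read in the same fit. Of 5 genes of resident macrophages 4 were lower and 1 higher in each tumour group, and the list summed to 1780 to 2587 CPM in ID8-FSHR, 1659 to 2112 CPM in ID8 and 2972 to 3441 CPM in uninjected mice. Of 4 T cell genes none was called in ID8-FSHR and 3 were lower in ID8, with sums of 28.4 to 58.3, 19.9 to 21.1 and 19.5 to 59.8 CPM. Their part in the kappa result was not tested.

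The other light chain and heavy chain genes moved in the same direction. Of the 7 tested light chain genes besides the segments, all 7 were lower in ID8-FSHR (median -3.27) and all 7 in ID8 (-3.04). Iglc2 stood at -3.61 and -3.13, and Iglv3, with the smallest fall in each group, at -2.78 and -2.10. Lambda constant counts came to 32.5% ± 2.53 of Igkc counts in ID8-FSHR, 34.0% ± 3.42 in ID8 and 39.2% ± 2.11 in uninjected mice (SD, n = 4 each). The ID8-FSHR libraries (29.0% to 34.5%) lay below the uninjected ones (36.4% to 40.9%), and the ID8 libraries (29.3% to 36.8%) overlapped them. Lambda variable counts came to 15.9%, 15.9% and 17.7% of kappa segment counts in the same order, and both tumour groups overlapped uninjected mice. Of the 7 tested heavy chain constant genes 5 were lower in ID8-FSHR and 6 in ID8. Ighd, the constant gene of IgD, fell by 1.80 and 1.44, and Ighg3, that of IgG3, by 3.53 and 3.13.

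Markers of antibody-secreting and of developing B cells were read in the same fit. Of 9 tested plasma cell genes 5 were lower and 1 higher in ID8-FSHR, and 5 were lower and 4 higher in ID8. The joining chain gene Jchain fell by 2.67 and 2.54 and Mzb1 by 3.46 and 3.45, while Sdc1, which epithelial cells also express, rose by 1.64 and 2.01 on the log2 scale. Of 7 genes of V(D)J recombination and pre-B cells 1 was tested, Cd93, which other blood and vessel cells also express, and it fell by 1.66 and 1.08 on the log2 scale. The recombinase genes were nearly empty, with 2 counts of Rag2 in ID8-FSHR replicate 3, 2 of Rag1 in ID8 replicate 1 and 12 of Rag1 in uninjected replicate 3. Dntt, which adds bases at the joints, had 4, 4, 0 and 14 counts in ID8-FSHR, 2 in ID8 replicate 2 alone and 6, 16, 16 and 6 in uninjected mice. The surrogate light chain gene Vpreb1 had 0 to 2 counts in ID8-FSHR, 0 to 8 in ID8 and 6 to 12 in uninjected mice, while Vpreb2 and Igll1 had none in any library.

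Single segments fell across the locus. Of the 93 segments 79 passed the filter on low counts and were tested with all other genes. In ID8-FSHR 78 were lower and none higher than in uninjected mice, with a median log2 fold change of -2.86 against 0.000832 over all 16915 genes tested. In ID8 75 were lower and none higher, with a median of -2.68 against -0.0255 over all genes. Over all genes, 30.6% were lower in ID8-FSHR and 31.4% in ID8 by the same test. Without ID8-FSHR replicate 2, 82 and 80 of 87 tested segments were lower. Both comparisons use the same 4 uninjected libraries.

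These counts describe the segments and cannot stand as support, because 78.0% of the counts that chose them came from the uninjected libraries. Of the 93 segments 87 would have reached 50 counts in the uninjected libraries alone and 63 in the 8 tumour libraries alone. Of those 63, all of them tested, 62 were lower in ID8-FSHR and 60 in ID8, and none was higher. By their CPM, the ranges did not overlap and were lower for 81 of the 93 segments in ID8-FSHR, against 27.4% of all genes tested. In ID8 this held for 78 of the 93, against 30.7%. The 14 untested segments had totals of 52 to 104 counts, and all 14 had a lower mean CPM in both tumour groups.

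The segment not called in ID8-FSHR was Igkv13-85, at a log2 fold change of -1.37 (adjusted p = 0.115). In ID8 the 4 not called were Igkv13-85 (-1.14, adjusted p = 0.181), Igkv3-1 (-0.91, adjusted p = 0.148), Igkv4-55 (-0.95, adjusted p = 0.119) and Igkv5-45 (-1.52, adjusted p = 0.0587), all by edgeR. These 4 had few or uneven counts. Igkv13-85 had 16, 8, 12 and 1 counts in ID8-FSHR, 12, 3, 19 and 10 in ID8, and 9, 50, 21 and 10 in uninjected mice. Igkv4-55 had 25, 31, 132 and 69 counts in ID8, most of them in replicate 3. Beside the fall of Igkc itself, 22 segments fell further and 57 less far in ID8-FSHR, and 25 fell further and 54 less far in ID8.

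**Figure D2:**
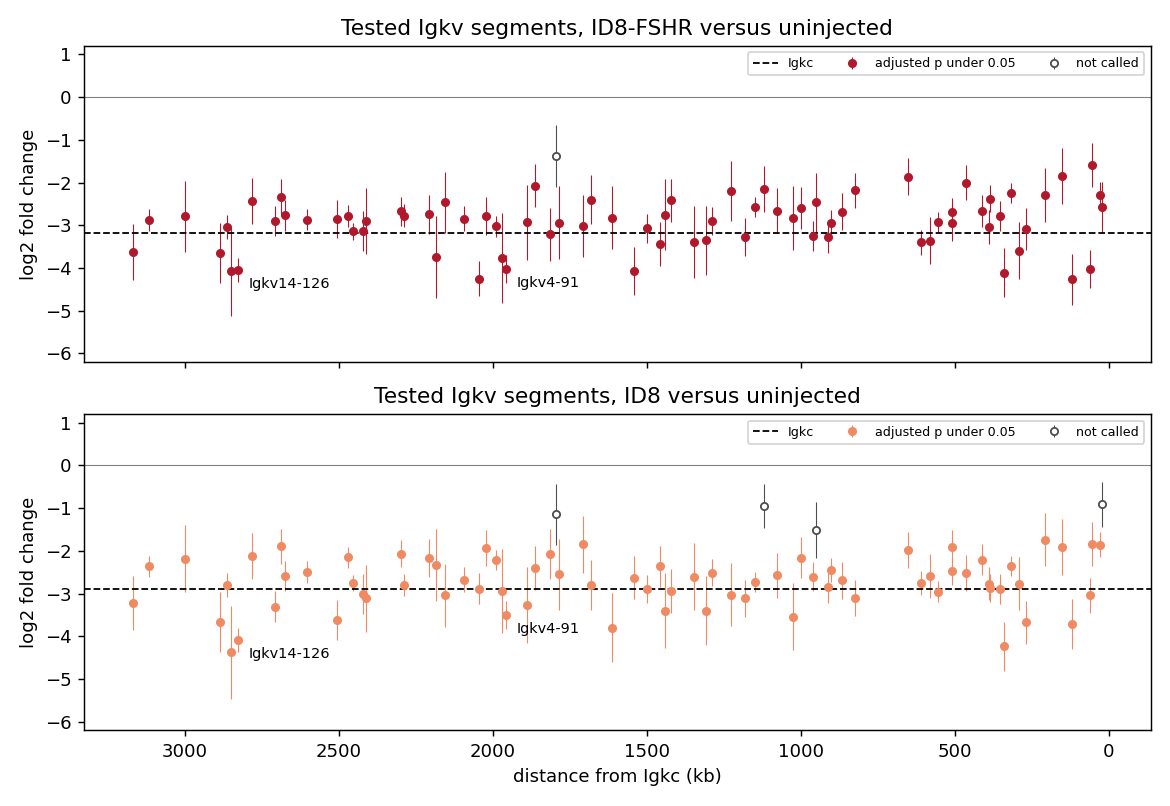
Each point is a tested segment, placed by its distance from Igkc in kb (horizontal axis), with its log2 fold change against uninjected mice and its SE (vertical axis), for ID8-FSHR above and ID8 below. Filled points passed an adjusted p of 0.05, open points did not, and the dashed line is Igkc at -3.18 and -2.90. Every point lies below 0, along the whole locus, and Igkv14-126 and Igkv4-91 lie below the line in both panels.

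Igkv14-126 led the kappa repertoire of the uninjected cavity and lost share in both tumour groups. It stood at 8.43, 7.34, 4.25 and 5.18 CPM in ID8-FSHR, at 5.86, 6.81, 3.70 and 8.16 CPM in ID8, and at 122.9, 77.6, 92.6 and 123.9 CPM in uninjected mice. No tumour library came near the uninjected ones. It fell by 4.05 on the log2 scale in ID8-FSHR (SE 0.28, edgeR adjusted p = 6.19e-08) and by 4.09 in ID8 (SE 0.28, edgeR adjusted p = 5.61e-08), further than Igkc in each.

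Its share of the kappa segments was 16.4%, 11.7%, 7.88% and 12.9% in ID8-FSHR, 9.05%, 13.4%, 5.13% and 13.7% in ID8, and 32.0%, 18.7%, 18.8% and 24.5% in uninjected mice. The highest tumour library, at 16.4%, lay below the lowest uninjected one, at 18.7%. Means were 12.2% ± 3.53, 10.3% ± 4.05 and 23.5% ± 6.29 (SD, n = 4 each). The share fell by 11.3 percentage points in ID8-FSHR and fell by 13.2 points in ID8 relative to uninjected mice, each with a two-sided exact permutation p of 0.0286, the smallest that 4 against 4 allows. Without ID8-FSHR replicate 2 it fell by 11.1 points. These are among 18 such tests, of the 6 segments with the highest share in uninjected mice in 3 comparisons, and their p-values are not adjusted. Since the 6 were chosen by their uninjected shares, the direction of a fall from that group is in part set by the choice.

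Igkv4-91 also lost share in both tumour groups. It held 1.88%, 2.47%, 3.16% and 4.56% in ID8-FSHR, 2.79%, 4.83%, 4.78% and 1.61% in ID8, and 5.10%, 5.39%, 5.79% and 5.44% in uninjected mice. The uninjected libraries lay within a narrow band, and all 8 tumour libraries lay below it. The mean share was 3.02% ± 1.15, 3.50% ± 1.58 and 5.43% ± 0.281 (SD, n = 4 each), which fell by 2.41 points in ID8-FSHR and fell by 1.93 points in ID8 (two-sided exact permutation p = 0.0286 in each). Its expression fell by 4.02 on the log2 scale in ID8-FSHR (SE 0.34, edgeR adjusted p = 3.53e-07) and by 3.50 in ID8 (SE 0.33, edgeR adjusted p = 9.19e-07). With Igkv14-126 left out of the total, chosen after the values were seen, the share fell by 3.69 points in ID8-FSHR and fell by 3.23 points in ID8.

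The shares of the other 4 leading segments overlapped between groups. Igkv1-117 held 8.24% ± 1.00 in ID8-FSHR, 8.83% ± 2.12 in ID8 and 6.95% ± 0.785 in uninjected mice (SD, n = 4 each), with an exact permutation p of 0.114 in each tumour comparison. Igkv1-110 held 5.59% ± 0.343, 6.19% ± 1.16 and 5.69% ± 0.281. Igkv10-96 held 4.36% ± 1.16, 4.20% ± 0.518 and 3.69% ± 1.19. For Igkv1-110 and Igkv10-96 the exact permutation p in the tumour comparisons lay between 0.457 and 0.629. For Igkv1-110 this rests on the total: with Igkv14-126 left out of it, chosen after the values were seen, Igkv1-110 held 6.07% to 6.76% in ID8-FSHR, below all uninjected libraries at 6.82% to 8.18% (exact permutation p = 0.0286), and its difference in ID8 was -0.556 in place of 0.495 points. All 3 fell in expression with the rest, Igkv1-117 by 2.86 and 2.49, Igkv1-110 by 3.14 and 2.75, and Igkv10-96 by 2.85 and 2.68 on the log2 scale in ID8-FSHR and in ID8.

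The share of Igkv12-89 ranged widely within each group. Its share was 1.08%, 5.10%, 13.4% and 1.00% in ID8-FSHR, 5.39%, 2.30%, 1.16% and 5.69% in ID8, and 3.25%, 1.21%, 4.47% and 9.20% in uninjected mice. In ID8-FSHR replicate 3 it was the leading segment of the library, with 361 of 2692 counts (95% exact interval 12.1% to 14.8%), against a median of 1.08% in the other 3 libraries of that group. In uninjected replicate 4 it had 2139 of 23256 counts (interval 8.83% to 9.58%), against a median of 3.25%. Its log2 fold change was -2.93 in ID8-FSHR (SE 0.88, edgeR adjusted p = 0.0106) and -3.26 in ID8 (SE 0.89, edgeR adjusted p = 0.00619). The ID8-FSHR value was -3.97 without ID8-FSHR replicate 3 and -2.22 without uninjected replicate 4, and the call was lost without ID8-FSHR replicate 2 (edgeR adjusted p = 0.0525). The ID8 value was -2.56 without uninjected replicate 4, in a range of -3.59 to -2.56 when 1 library was left out.

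**Figure D3:**
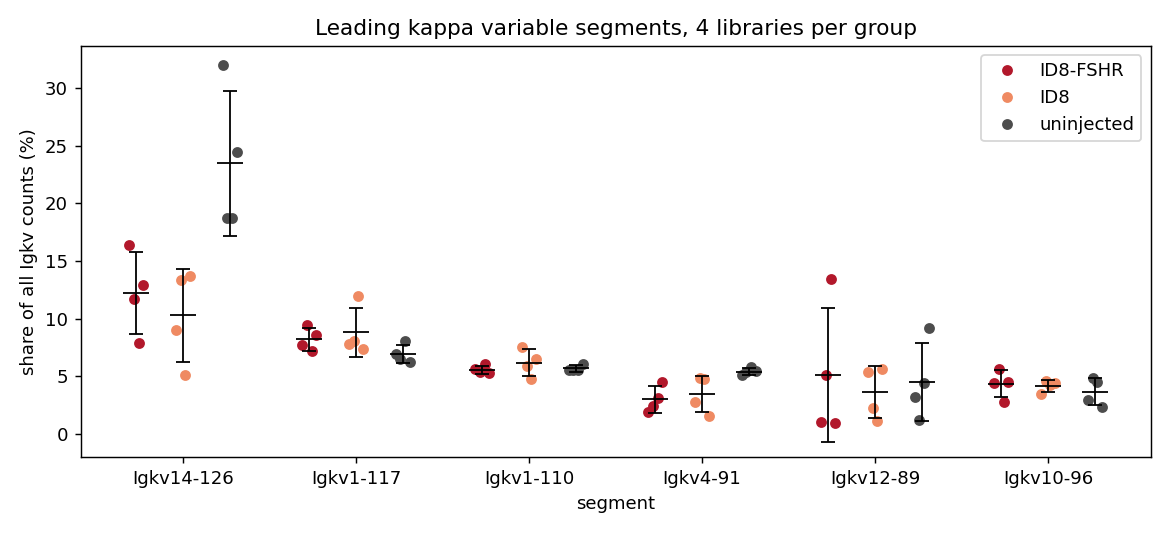
The share of all Igkv counts, in percent, of the 6 segments with the highest share in uninjected mice, with 4 libraries per group as points and the mean and SD. Igkv14-126 (12.2% and 10.3% against 23.5%) and Igkv4-91 (3.02% and 3.50% against 5.43%) show no overlap with the uninjected libraries. The SD of Igkv12-89 in ID8-FSHR is larger than its mean, so its lower bar passes below 0.

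Across all 93 segments few shares separated the groups. In ID8-FSHR 5 shares were higher and 4 lower than in uninjected mice with no overlap, and in ID8 5 were higher and 3 lower. With Igkv14-126 left out of the total the counts were 4 higher and 4 lower in ID8-FSHR, and 2 higher and 4 lower in ID8. When every tested gene is divided by the same kappa total, 92.0% and 91.8% of genes separate from uninjected mice, because the total itself differs, so this background is not comparable with a share within the kappa total. Igkv6-15 was higher in both, at 3.23% ± 0.273 in ID8-FSHR and 2.48% ± 0.567 in ID8, against 1.77% ± 0.272 in uninjected mice (SD, n = 4 each). Leaving Igkv14-126 out of the total, also chosen after the values were seen, left Igkv6-15 separate from uninjected mice in ID8-FSHR (3.68% against 2.32%) but not in ID8 (2.77%). Its expression fell by 2.25 and 2.36 on the log2 scale.

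The remaining segments with separate shares were mostly small. In ID8-FSHR Igkv6-32 (1.34% against 0.560%), Igkv4-55 (0.990% against 0.509%), Igkv5-39 (0.796% against 0.433%) and Igkv1-88 (0.532% against 0.247%) held more than in uninjected mice, and Igkv10-95 (0.139% against 0.315%) held less. Igkv14-130 had no count in the ID8-FSHR libraries. In ID8 Igkv19-93 (2.71% against 1.72%), Igkv17-121 (1.51% against 0.789%), Igkv6-25 (1.01% against 0.529%) and Igkv3-1 (0.285% against 0.0690%) held more, and Igkv2-107 less. With Igkv14-126 left out of the total, Igkv1-88 in ID8-FSHR and Igkv17-121 and Igkv6-25 in ID8 overlapped with uninjected mice.

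The largest fitted falls were in segments of differing abundance. In ID8-FSHR they were Igkv3-7 (log2 fold change -4.27, SE 0.60), Igkv10-95 (-4.26, SE 0.41), Igkv8-16 (-4.11, SE 0.57), Igkv4-74 (-4.08, SE 0.57) and the pseudogene Igkv14-126-1 (-4.07, SE 1.06), each within its SE of the -4.05 of Igkv14-126. In ID8 they were, beside Igkv14-126, Igkv14-126-1 (-4.38, SE 1.08), Igkv8-16 (-4.24, SE 0.58), the pseudogene Igkv4-77 (-3.80, SE 0.80) and Igkv3-7 (-3.71, SE 0.58). Igkv3-7 is an abundant segment, with a mean of 9.46 CPM in uninjected mice, while the others are rarer. Igkv8-16 had 5, 13, 4 and 2 counts in ID8-FSHR, 6, 5, 2 and 10 in ID8, and 113, 57, 75 and 141 in uninjected mice, so every tumour library lay below every uninjected one. Igkv14-126-1 had 6 counts in ID8-FSHR replicate 2 and none in the other 3, 1 and 4 counts in ID8 replicates 2 and 4 and none in the other pair, and 27, 23, 11 and 40 in uninjected mice. Without ID8-FSHR replicate 2 its fitted change was -7.73, and without ID8 replicate 4 -5.93. Igkv4-77 moved to -5.06 without ID8 replicate 1, Igkv3-7 to -4.40 without ID8 replicate 3, and Igkv8-16 to -4.76 without ID8-FSHR replicate 2. Each of these stayed past the threshold. They are the largest falls among the fits that left out 1 library. The smallest were -3.63 in ID8-FSHR and -3.93 in ID8 for Igkv14-126-1, and -3.81 in ID8-FSHR for Igkv8-16. For Igkv4-77 and Igkv3-7 in ID8 they were -3.41 and -3.28.

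Counts were spread more evenly over the segments in tumour mice, a difference that rests on Igkv14-126. The effective number of segments, the inverse of the chance that 2 counts drawn from a library fall on the same segment, was 20.2, 24.6, 22.3 and 24.5 in ID8-FSHR, 26.98, 23.0, 26.7 and 22.4 in ID8, and 8.31, 17.5, 17.0 and 11.7 in uninjected mice. Every tumour library lay above every uninjected one. Means were 22.9 ± 2.09, 24.8 ± 2.41 and 13.6 ± 4.40 (SD, n = 4 each). With Igkv14-126 left out, a choice made after the values were seen, they were 28.3 ± 4.38, 28.1 ± 1.55 and 26.4 ± 3.26, and the groups overlapped.

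Depth bears on how many segments a library shows. The libraries held 2195 to 3242 kappa counts in ID8-FSHR, 2524 to 4377 in ID8 and 19458 to 24424 in uninjected mice, and 79 to 86, 81 to 85 and 91 to 93 of the segments had a count. Thinned to 2195 counts in each library, the expected number was 78.3 to 84.3 in ID8-FSHR, 80.4 to 83.7 in ID8 and 84.8 to 87.8 in uninjected mice. At equal depth the tumour libraries thus showed fewer of the 93 segments than every uninjected one. Of the 93, 87 reached 50 counts in the uninjected libraries alone and 63 in the 8 tumour libraries alone. This difference is therefore in part set by the choice of segments, and nothing is read from it. The number of segments needed for 50% of the counts averaged 9.5 in ID8-FSHR, 9.5 in ID8 and 6.25 in uninjected mice.

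**Figure D4:**
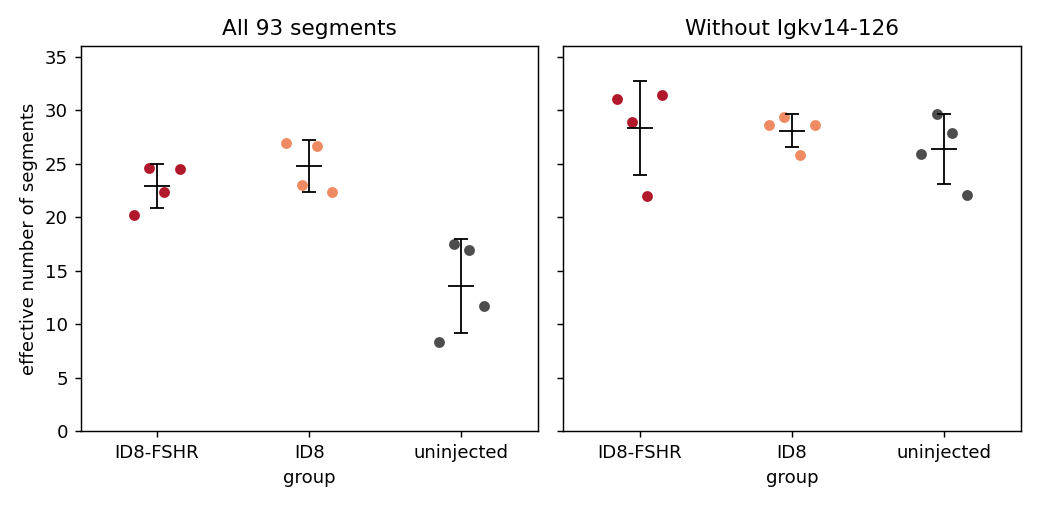
The effective number of segments per library, with the mean and SD of 4 libraries, over all 93 segments on the left and without Igkv14-126 on the right. On the left the groups average 22.9, 24.8 and 13.6 and the tumour groups do not overlap uninjected mice. On the right they average 28.3, 28.1 and 26.4 and overlap.

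Summed by family, the Igkv14 family held 15.8% ± 3.43 in ID8-FSHR, 14.9% ± 4.00 in ID8 and 26.5% ± 5.86 in uninjected mice (SD, n = 4 each), and neither tumour group overlapped uninjected mice. Of its 5 members Igkv14-126 held most. Without it the family held 4.05%, 5.10% and 3.85% of the rest, with overlap. Igkv1, with 9 members, held 19.5% ± 0.901, 21.1% ± 1.56 and 17.4% ± 0.506, separate from uninjected mice in both tumour groups, but not once Igkv14-126 was left out (22.2%, 23.5% and 22.9%). Igkv6, also with 9 members, held 9.20% ± 0.969, 7.63% ± 0.595 and 5.91% ± 1.499, and its ID8-FSHR libraries lay above all uninjected ones with and without Igkv14-126 in the total. The 25 members of Igkv4 together held 11.02%, 11.8% and 11.8%. Without Igkv14-126 in the total they held 12.6% in ID8-FSHR, 13.1% in ID8 and 15.5% in uninjected mice, and the ID8-FSHR libraries (11.25% to 14.600%) lay just below the uninjected ones (14.61% to 17.03%).

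Position in the locus was described in the same way. The 46 segments farther from Igkc held 65.2% ± 0.664 in ID8-FSHR, 66.1% ± 1.595 in ID8 and 72.2% ± 4.20 in uninjected mice (SD, n = 4 each). The ID8-FSHR libraries (64.5% to 66.0%) lay just below the uninjected ones (66.9% to 76.0%), while the ID8 libraries (64.7% to 68.2%) overlapped them. Without Igkv14-126, which lies among these 46 segments, the values were 60.3%, 62.2% and 63.7%, and both tumour groups overlapped uninjected mice.

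The heavy chain segments whose level was most like that of these 2 kappa segments were looked up among 91 Ighv symbols, by Pearson correlation of log2 of CPM plus 0.5 over the 12 libraries. The fall shared by most segments raises every such correlation, which is a description only. For Igkv14-126 the first was Ighv11-2 (r = 0.997), ahead of Ighv2-2 (0.976) and Ighv5-15 (0.973). For Igkv4-91 it was Ighv12-3 (0.982), ahead of Ighv1-63 (0.971) and Ighv9-3 (0.970). Between shares of each chain's own total, which do not carry the fall of the totals, r was 0.962 for Igkv14-126 with Ighv11-2 and 0.781 for Igkv4-91 with Ighv12-3. The mean shares of these segments were themselves lower in both tumour groups, so r still carries a difference between groups. Igkv14-126 with Ighv11-2 and Igkv4-91 with Ighv12-3 are the pairs known from phosphatidylcholine-binding B-1 cells of the mouse.

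Ighv11-2 held 20.02%, 12.6%, 7.84% and 17.1% of Ighv counts in ID8-FSHR, 11.5%, 19.3%, 8.31% and 12.8% in ID8, and 32.4%, 23.6%, 22.0% and 29.0% in uninjected mice. As for Igkv14-126, replicate 3 was the lowest in both tumour groups, and all tumour libraries lay below all uninjected ones. Ighv12-3 held 3.16% ± 0.871, 3.22% ± 1.504 and 5.57% ± 2.00 (SD, n = 4 each), with overlap between groups.

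**Figure D5:**
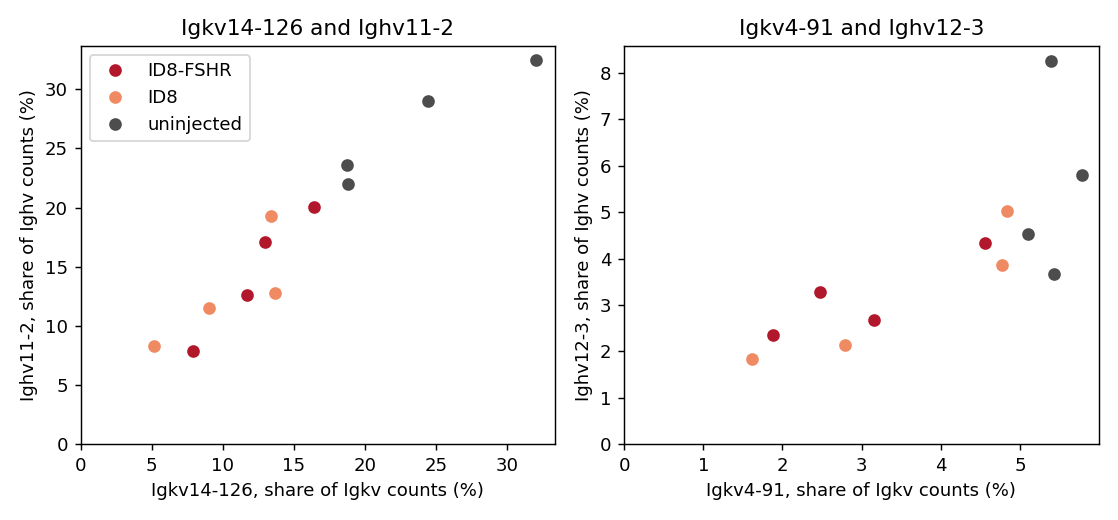
Each point is 1 of 12 libraries. The left panel plots the share of Ighv11-2 among Ighv counts against the share of Igkv14-126 among Igkv counts, and the right panel Ighv12-3 against Igkv4-91, all in percent. On the left the libraries lie close to a line (r of shares 0.962), with the uninjected ones at the upper end, and on the right they scatter more (0.781).

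Markers of B-1 cells were read beside these shares. Of 9 B-1 genes 6 were lower in ID8-FSHR and 9 in ID8, with medians of -0.81 and -2.10. Those not called in ID8-FSHR were Cd9, Spn and Itgam. Siglecg, an inhibitory receptor, fell by 3.19 and 3.13, and the transcription factor Zbtb32 by 3.23 and 3.21, both within the range of the kappa segments. Cd5, which T cells also express, fell by 0.81 and 2.10. Summed, the list ran from 1160 to 1895 CPM in ID8-FSHR, from 903 to 1198 CPM in ID8 and from 1746 to 1930 CPM in uninjected mice. Most of this sum was Itgam, at means of 916, 708 and 1059 CPM, and Cd9, at 311, 239 and 316 CPM. The sum therefore says little about the other genes of the list. Several genes of the list, such as Itgam, are also expressed by macrophages, and the part of any cell type in the kappa result was not tested.

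Between ID8-FSHR and ID8 a single kappa segment passed the test. Of 79 tested segments 1 was lower and none higher in ID8-FSHR, against 11.6% of all genes called in either direction, and 9 reached an unadjusted p under 0.05. The median log2 fold change was -0.28, as was that of Igkc. The called segment was Igkv19-93, at 1.11, 0.736, 1.24 and 0.694 CPM in ID8-FSHR and 1.85, 1.55, 1.87 and 1.40 CPM in ID8, with no overlap (log2 fold change -0.82, SE 0.24, edgeR adjusted p = 0.0442). The call was lost in limma-voom (adjusted p = 0.103), without the filter (0.0608), with only the 2 groups in the fit (0.0873) and in 9 of 12 fits that left out 1 library, at an edgeR adjusted p of 0.0520 to 0.117. Those were the fits without any one of the 4 ID8 libraries, without ID8-FSHR replicate 2 or 4, or without uninjected replicate 2, 3 or 4. Without ID8-FSHR replicate 2 the segment called was Igkv10-95 (log2 fold change -1.66, edgeR adjusted p = 0.0461), at -1.37 and an adjusted p of 0.0554 with it. A segment other than Igkv19-93 was also called as lower without ID8 replicate 2, 1 of 87 tested there.

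Shares between the tumour groups overlapped except in Igkv19-93 (1.84% ± 0.508 in ID8-FSHR and 2.71% ± 0.307 in ID8) and Igkv10-95 (0.139% and 0.318%). This is 2 of 93, against 10.0% of all genes divided by the kappa total, from which nothing is read because that total also enters the other genes' values. Igkv14-126 held 1.93 points more in ID8-FSHR than in ID8 (two-sided exact permutation p = 0.514), from 0.201 points without ID8 replicate 3 to 3.38 without ID8-FSHR replicate 3, and its log2 fold change was 0.04 (SE 0.26, edgeR adjusted p = 0.939). The difference for Igkv4-91 was -0.486 points (exact permutation p = 0.657), from -0.0418 without ID8 replicate 2 to -1.12 without ID8 replicate 4, and its log2 fold change was -0.52, with an SE of 0.32 and an edgeR adjusted p of 0.309. Neither p shows that the groups are alike.

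With ID8-FSHR replicate 2 left out, the remaining 3 ID8-FSHR libraries also lay below uninjected mice. Summed kappa segments averaged 48.4 ± 7.36 CPM and Igkc 94.7 ± 14.6 CPM (SD, n = 3), and Igkc fell by 3.17 on the log2 scale (SE 0.18, edgeR adjusted p = 1.44e-08). All 14 B cell genes were lower (median -2.96), 5 plasma cell genes were lower and 1 higher, and 7 B-1 genes were lower. Of resident macrophage genes 4 were lower and 1 higher, and no T cell gene was called. Igkv4-91 fell by 3.94, Igkv1-117 by 2.96 and Igkv6-15 by 2.198, each past the threshold.

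Shares were averaged over the same 3 libraries. Igkv14-126 held 12.4% ± 4.31, Igkv4-91 3.20% ± 1.34, Igkv1-117 7.83% ± 0.701 and Igkv6-15 3.32% ± 0.243 of the kappa counts (SD, n = 3). The Igkv14 family held 15.9% ± 4.20, Igkv1 19.3% ± 1.05, Igkv6 9.39% ± 1.09 and Igkv4 11.1% ± 1.39. Ighv11-2 held 14.97% ± 6.35 and Ighv12-3 3.12% ± 1.06 of the Ighv counts. The effective number averaged 22.35 ± 2.16. With 3 libraries in place of 4 ranges can only overlap less, and 7 further segments then separated from uninjected mice, Igkv16-104, Igkv3-2 and Igkv4-60 as higher and Igkv8-16, Igkv2-137, Igkv2-107 and Igkv14-126-1 as lower.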

How the data were processed

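Total RNA of peritoneal lavage cells was sequenced after depletion of ribosomal RNA (KAPA RNA HyperPrep with RiboErase), per the labels' protocols. The deposited values are whole-number read counts per gene for 12 libraries, not normalized by the authors as far as the labels and values show. The submitters' processing notes list STAR 2.7.9a, bcl2fastq 2.20, featureCounts and Subread 1.6.4 with the build GRCm38.p6. For strand and multi-mapping reads the settings are not given in the sources read here. Groups and replicate numbers came from the labels. The labels call the samples biological replicates.

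All genes passing edgeR's default filter (16915) were fitted in R 4.3.3 with the quasi-likelihood test of edgeR 4.0.16 (TMM scaling, robust, group only, all 12 libraries), with Benjamini-Hochberg adjustment over all of them and a threshold of 0.05. CPM were counts scaled to 1000000 by effective library size, in which 3 counts correspond to 0.0444 to 0.0653 CPM. Shares were tested over libraries by exact permutation. Intervals are exact binomial and leave out all but counting error, as reads carry no molecular identifiers. Gene positions and sequences came from GENCODE M21. The method was tested on simulated data with 200 changed genes. Within groups no 2 libraries agreed within sampling noise (chi-square per degree of freedom 15.3 to 259).

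The segments and gene lists were chosen with earlier results of these data known. One gene of the B cell list is not reported here. Named segments are the 10 with the highest share in uninjected mice and the 5 highest in each tumour group. To them come the 5 largest called changes each way, the 3 largest non-overlapping share changes each way, the 6 largest single-library excesses, Igkv14-126, Igkv4-91, and the neighbours of the limit of 50. Some were given values only within such counts. Other genes were chosen after their values were seen. The alternatives were DESeq2 1.42.0, limma-voom (limma 3.58.1), median-of-ratios scaling, no filter, only the groups compared, a minimum of 1 CPM in 4 libraries, a fit without the 10 most abundant genes, a replicate block, other denominators, and leaving out each library.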

Additional observations from a re-analysis of the deposited data

Results flagged for a closer look

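Within groups of 4 libraries, 9 of 78 sets of values held a library far from the other 3 by Dixon's test at the 95% level. The sets were the shares of the named segments, the summed kappa CPM, the Igkv to Igkc ratio and the effective number of segments. All 9 flagged sets were shares. Chance alone gives such a library in about 1 of 20 sets of continuous values chosen without regard to those values. Some segments were named for extreme values in these same data, so that rate does not apply here. In 3 of the 9 the other 3 libraries had no count, so that any single count there stands apart. The remaining 6 rest on counts in all 4 libraries. Each value below is a share of the kappa segment counts.

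In ID8-FSHR, Igkv14-111 stood at 3.28% in replicate 4, against 2.93% to 2.99% in the others. Igkv4-55 stood at 1.33% in ID8-FSHR replicate 2, against 0.854% to 0.911%. The pseudogene Igkv14-126-1 stood at 0.190% (6 counts) in ID8-FSHR replicate 2 and at 0 in the others. In ID8, replicate 3 stood apart for Igkv1-117 at 11.98%, against 7.42% to 8.04%, and for Igkv3-7 at 2.18%, against 0.645% to 0.872%. Igkv2-107 stood at 0.0276% (1 count) in ID8 replicate 3 and Igkv6-29 at 0.0587% (2 counts) in ID8 replicate 4, with 0 in the others of each set. In uninjected mice, Igkv1-110 stood at 6.11% in replicate 4, against 5.54% to 5.56%, and Igkv4-55 at 0.708% in replicate 3, against 0.423% to 0.469%.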

How the results depend on the processing

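Counts of called segments kept within 1.5 times in all alternatives except the following. With 1 CPM in 4 libraries, where only 44 segments were tested, 44 were lower in ID8-FSHR and 43 in ID8. Between ID8-FSHR and ID8 the count was 0 with limma-voom, without the filter and with only the groups compared, and ran from 0 to 1 when 1 library was left out; the main count was 1. Leaving out 1 library gave 77 to 83 and 69 to 81 called segments in ID8-FSHR and ID8 against uninjected mice. DESeq2 called 86 and 84 of 93. With total counts in place of effective library sizes the summed CPM ratio of ID8 to uninjected mice was 0.158 in place of 0.138. The effective number in ID8-FSHR and ID8 relative to uninjected mice, 1.68 and 1.82, was 1.07 and 1.06 without Igkv14-126, and 1.49 to 1.86 and 1.61 to 2.01 when 1 library was left out. The ratio of Igkv to Igkc counts in ID8-FSHR relative to ID8 ran from 0.989 to 1.03 when 1 library was left out. Of 713 alternatives for single segments 13 lost a call, 1 gained one and 16 turned sign, 12 of them on leaving out a library and 4 with other denominators, all in values that were not called. The log2 fold change of Igkv14-126 between ID8-FSHR and ID8 was -0.14 without ID8 replicate 3, -0.13 without ID8-FSHR replicate 1 and -0.02 without ID8-FSHR replicate 2, in a range of -0.14 to 0.21. The share difference of Igkv12-89 crossed 0 when 1 library was left out, at -2.14 to 2.17 points for ID8-FSHR and -2.01 to 0.655 for ID8 against uninjected mice and -1.24 to 2.90 between ID8-FSHR and ID8. So did that of Igkv1-110 between ID8-FSHR and uninjected mice (-0.254 to 0.0402), and those of Igkv1-117 (-1.06 to 0.464) and Igkv10-96 (-0.262 to 0.677) between ID8-FSHR and ID8. Without ID8-FSHR replicate 2, between ID8-FSHR and ID8 no T cell gene was higher (2 with it) and no macrophage gene lower (1 with it). The share difference of Igkv1-110 between ID8 and uninjected mice was -0.459 points without the largest segment of each library in the total and -0.556 without Igkv14-126. Without Igkv14-126 in the total that of Igkv12-89 between ID8-FSHR and uninjected mice was -0.295, that of Igkv10-96 between ID8 and uninjected mice -0.0785, and that of Igkv1-110 between ID8-FSHR and uninjected mice -1.11 with an exact permutation p of 0.0286. All denominators without Igkv14-126 were chosen after seeing the data; the causes of these shifts were not tested. The labels do not state that replicate numbers pair the samples. Over 12 pairs of samples with the same number the mean correlation of deviations was 0.0127 (-0.217 to 0.352, 2 over 0.1). Over 36 pairs with other numbers it was -0.00386 (-0.334 to 0.334, 4 over 0.1). With 4 libraries per group these values are too few to show whether the numbers pair the samples. With a replicate block 77, 74 and 1 segments were called in ID8-FSHR and ID8 against uninjected mice and between ID8-FSHR and ID8. At 2195 to 4377 kappa counts per tumour library, rare segments rest on few counts.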
